A study of Mus musculus with 12 samples.

Results

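The ribosome of the cytosol is built from ribosomal RNA and from the products of the ribosomal protein genes, whose symbols begin with Rps for the small subunit, which reads the mRNA, and with Rpl for the large subunit, which joins amino acids. These mRNAs are abundant in every cell. Many of them carry a stretch of pyrimidines at their first bases (a terminal tract), through which the kinase mTOR and the protein Larp1 control their translation, and a resting lymphocyte that is activated makes more ribosomes before it divides. The cytosolic ribosomal protein genes were chosen here by symbol, namely Rps or Rpl followed by a number, beside Rpsa and the stalk genes Rplp0, Rplp1 and Rplp2, with a mean of at least 5 CPM over the libraries (CPM are counts divided by the library's total and put on a common scale). Of 20778 rows of the count table, 84 matched the symbols and 79 reached the minimum, 31 of the small and 48 of the large subunit. The 5 rows below it were Rps4l (4.5 CPM), Rps12 (1.3 CPM), Rpl39l (0.8 CPM), Rpl3l (0.1 CPM) and Rpl10l (0.0 CPM). The lowest gene inside the minimum was Rpl22l1 at 11.7 CPM. All 79 genes passed the count filter and were among the 12122 genes tested.

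CD8 T cells were taken from the spleen of C57BL/6 mice by magnetic selection and cultured for 6 hours. Naïve cells had no stimulus, αCD3 is an antibody that engages the T cell receptor, IFNγ is a cytokine that was given at 70 ng/ml, and LPS is a component of bacterial walls that Toll-like receptor 4 senses. The mice were 6 weeks of age by the labels, which the study's methods state differently, and no genetic change is given for any group. The doses of αCD3 and LPS were both 1 µg/ml in one label and in another unit elsewhere, so this unit is uncertain. Each of the 4 groups had 3 libraries, 12 in all, and the labels do not say whether these came from separate animals or cultures, so p-values measure the spread between libraries, which may be technical.

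Total counts were 10196248 to 27610175 per library, with αCD3 replicate 1 the deepest. The cell type was checked against marker genes, on CPM scaled by the trimmed mean of M-values (TMM). In Naïve Cd8a stood at 206 to 270 CPM and Cd8b1 at 307 to 327 CPM, and the B cell gene Cd79a at 827 to 958 CPM, above both. RNA of B cells was therefore present beside that of CD8 T cells, which goes against a pure CD8 T cell label. With LPS Cd79a was at 234 to 377 CPM. The summed level of 9 CD8 T cell genes was 1431 to 1577 CPM in Naïve, 2206 to 2348 CPM in αCD3, 1543 to 1595 CPM in IFNγ and 1199 to 1361 CPM in LPS. The summed level of 10 B cell genes was 8473 to 9336 CPM in Naïve, 5919 to 6608 CPM in αCD3, 6950 to 7175 CPM in IFNγ and 5547 to 6827 CPM in LPS, so that all Naïve libraries lay above all others. Against Naïve, 6 of the CD8 T cell genes were called higher with αCD3 and 7 lower with LPS, and of the B cell genes 5 were called lower with αCD3, 3 with IFNγ and 4 with LPS, where 1 was called higher. No marker gene tested was at 0 in all libraries. The summed level of 4 plasma cell genes was 1289 to 1399 CPM in Naïve and 1281 to 1435 CPM in IFNγ, but 968 to 1004 CPM in αCD3 and 1034 to 1090 CPM in LPS, with 3 called lower in each of the last 2. That of 6 NK cell genes was 122 to 130 CPM in Naïve, 242 to 342 CPM in αCD3 (2 called higher), 139 to 236 CPM in IFNγ (1 higher) and 104 to 178 CPM in LPS (1 lower). That of 12 myeloid genes was 972 to 1879 CPM in Naïve, 892 to 1520 CPM in αCD3 (4 lower), 1581 to 2566 CPM in IFNγ (2 higher) and 1129 to 1810 CPM in LPS (1 higher and 3 lower). Neutrophil genes were at 140 to 200 CPM in Naïve, 86.5 to 121 CPM in αCD3 (2 lower), 136 to 179 CPM in IFNγ (1 lower) and 109 to 129 CPM in LPS (1 lower). Over all libraries CD4 T cell genes spanned 67.2 to 109 CPM and erythroid genes 336 to 4115 CPM. The part of this mixture in the results below was not tested, and in bulk RNA fewer cells of a type and less RNA per cell cannot be told apart.

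To show the bases at the start of these genes, 30 bases around the annotated start site were read from RefSeq promoters of GRCm38.p6, with 15 bases on each side, for the 4 genes that rose most, for 2 others that rose under every scaling used here (Rpl15, Rpl7a) and for 2 that stood lower beside their family (Rps27, Rpl39). Capitals mark a pyrimidine tract near the annotated start, defined as a C followed by at least 5 bases that are each C or T, read on the sense strand only and beginning within 10 bases of the start on either side.
Rps27l: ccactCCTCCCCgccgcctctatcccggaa
Rpl7l1: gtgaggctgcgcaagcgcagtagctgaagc
Rps2: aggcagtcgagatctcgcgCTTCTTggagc
Rpl10a: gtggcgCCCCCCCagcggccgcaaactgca
Rpl15: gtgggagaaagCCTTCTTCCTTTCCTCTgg
Rpl7a: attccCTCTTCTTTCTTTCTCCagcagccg
Rps27: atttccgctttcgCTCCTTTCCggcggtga
Rpl39: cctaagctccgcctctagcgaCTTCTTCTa

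These windows lie on GRCm38.p6 at chr9:66946071-66946100 on the plus strand (Rps27l), chr17:46782642-46782671 on the minus strand (Rpl7l1), chr17:24720048-24720077 on the plus strand (Rps2), chr17:28328456-28328485 on the plus strand (Rpl10a), chr14:18270972-18271001 on the minus strand (Rpl15), chr2:26910792-26910821 on the plus strand (Rpl7a), chr3:90213634-90213663 on the minus strand (Rps27) and chrX:37085208-37085237 on the minus strand (Rpl39). Rps27l and Rpl10a have a second annotated start, whose window holds no tract. Promoters were found for 59 of the 79 genes, and 32 of these (54.2%) held a tract at a start site, against 5910 of 27025 genes with a promoter (21.9%) and 1815 of 7743 expressed genes (23.4%). With 4 or 6 pyrimidines in place of 5 the tract was found in 35 or 28 of the 59 genes, and with a window of 5 or 20 bases in 26 or 40. A match of letters is a description and not a site. The marked stretches of Rps27l and Rpl10a end before the annotated start and so lie outside the annotated mRNA, and a run of pyrimidines can reach beyond the marked part where it begins farther upstream, as for Rps27l and Rpl7a. Rpl7l1, a paralogue of Rpl7 that is known from the nucleolus and early assembly of the large subunit, held no tract in this window, and the long tracts of Rpl15 and Rpl7a belong to proteins of the mature large subunit.

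Per unit of length, these genes spanned a wide range in the same libraries. Level per length is given as TMM-scaled CPM per kilobase of the median coding transcript, averaged over the 12 libraries. The highest were Rplp0 at 4322 (3982 to 4778 over the libraries) and Rplp1 at 3690 (3359 to 4121) CPM per kilobase, both of the acidic stalk that recruits elongation factors, and Rps24, of the small subunit, at 3020 (2758 to 3261). Neighbours in this order overlapped in part, since the ranges of Rplp0 and Rplp1 share values while Rps24 lay below both. The lowest were Rpl22l1 at 21.9 (12.4 to 29.2), Rps25 at 70.1 (52.1 to 96.3) and Rpl7l1 at 122 (74.3 to 194) CPM per kilobase. Rpl22l1 and Rpl7l1 are paralogues of Rpl22 and Rpl7, which are made at far higher levels. The order was much the same in all libraries, with Spearman coefficients of 0.975 to 0.998 between libraries across the 79 genes, which share library and gene length and are not independent. These coefficients pool pairs within and between groups. Over genes so far apart in level they stay high even where single genes change, so they do not measure an effect of treatment. With coding length in place of transcript length, Rplp0, Rplp1 and Rps24 ranked 2, 3 and 4, behind Rpl41, which ranked 17 by transcript length. Rps20 moved from rank 69 to 12, so the order depends in part on the length used. Of the stretches of 31 bases in Rplp1 24.9% were unique in the transcriptome, and in Rps25 61.2%, so their reads could be shared with other genes. In CPM without regard to length, 3 genes averaged under 100, 44 between 100 and 1000 and 32 over 1000.

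The 79 genes together took between 7.21% and 7.73% of the counts of each library. The share was 7.45%, 7.41% and 7.52% in Naïve replicates 1 to 3 (mean ± SD 7.46 ± 0.0549%, n = 3), 7.73%, 7.47% and 7.49% with αCD3 (7.56 ± 0.144%), 7.34%, 7.21% and 7.49% with IFNγ (7.35 ± 0.141%) and 7.34%, 7.41% and 7.69% with LPS (7.48 ± 0.186%). The groups overlapped, although between libraries of the same replicate number the IFNγ share lay below the Naïve share in all 3 pairs, for which no test was run. The small subunit genes held 3.18 ± 0.0143% in Naïve, 3.17 ± 0.0911% with αCD3, 3.15 ± 0.0508% with IFNγ and 3.12 ± 0.0833% with LPS. The large subunit genes held 4.28 ± 0.0411%, 4.39 ± 0.0536%, 4.2 ± 0.0916% and 4.36 ± 0.102% in the same order. With αCD3 all libraries lay above all Naïve libraries in the large subunit share, whereas the small subunit shares overlapped, and the IFNγ share of the large subunit lay below that of Naïve in all 3 pairs. Adding the ribosomal protein pseudogene rows raised the shares to 7.24% to 7.76%.

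**Figure D1:**
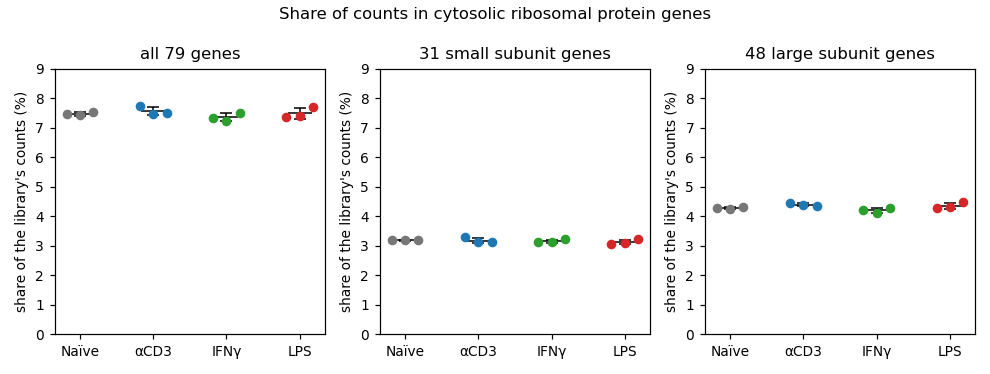
Share of each library's counts (%) in the 79 cytosolic ribosomal protein genes, in the 31 small subunit genes and in the 48 large subunit genes, by group. Points are libraries, bars are mean ± SD (n = 3), and all libraries lie between 7.21% and 7.73% for the 79 genes.

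How this share reads in a test depends on the scaling of the libraries. TMM factors averaged 1.08 in Naïve, 1.00 with αCD3, 0.983 with IFNγ and 0.937 with LPS, so that equal shares of counts appear as higher levels after treatment. Under TMM the median log2 fold change of the 79 genes against Naïve was 0.12 with αCD3, 0.11 with IFNγ and 0.22 with LPS, beside medians of -0.02, -0.02 and -0.01 over all genes tested. Under library size alone it was 0.01, -0.03 and 0.01, beside medians over all genes of -0.13, -0.16 and -0.22. The median of the family therefore stood above that of all genes, while the direction of its own median followed the scaling. A scaling shifts all genes of a library alike, so this gap is nearly fixed and its presence under both scalings is not separate support. Over these and 3 other scalings, 35 of the 79 genes changed sign against Naïve with αCD3, 51 with IFNγ and 35 with LPS. For this reason each comparison is given under TMM, under library size alone, and scaled to the 79 genes themselves (family scaling), which shows each gene relative to its family and was added after the data had been seen. A gene is called when its edgeR quasi-likelihood p, adjusted over all 12122 genes, is below 0.05.

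**Figure D2:**
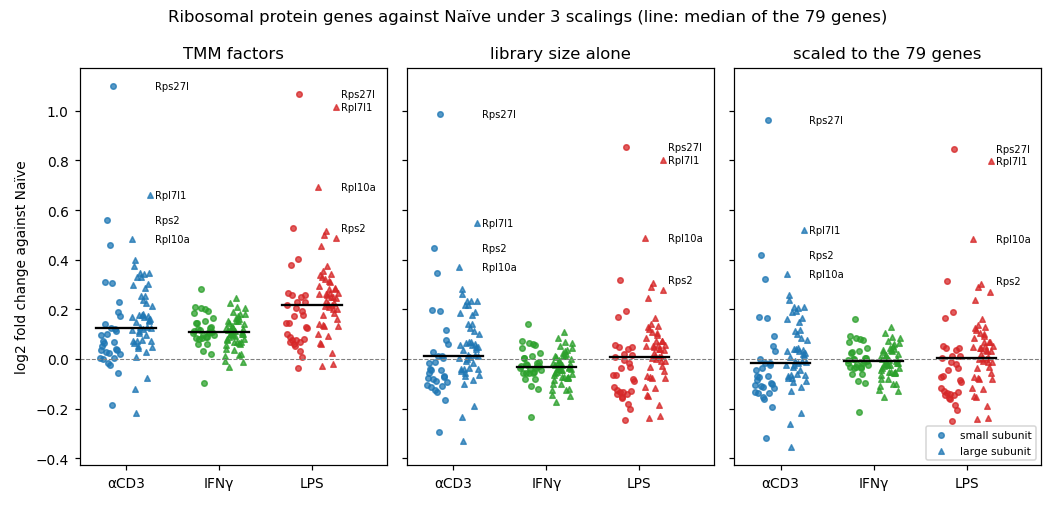
Log2 fold change against Naïve of the 79 ribosomal protein genes with αCD3, IFNγ and LPS, under TMM factors, library size alone and scaling to the 79 genes. Circles are small subunit genes, triangles large subunit genes and black lines the medians, which move from 0.12, 0.11 and 0.22 under TMM to -0.02, -0.01 and 0.00 with family scaling while Rps27l and Rpl7l1 stay apart with αCD3 and LPS.

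Over the 4 groups, 51 of the 79 genes differed under TMM, where 59.9% of all genes did, and 24 under library size (64.5% of all genes) and with family scaling (62% of all genes). A smaller share of these genes than of all genes thus passed the test under the last 2 scalings. With αCD3, which engages the T cell receptor, 32 genes were called higher than in Naïve under TMM, 25 of the large and 7 of the small subunit, where 22.9% of all genes were. None was called lower by edgeR, where 15.7% of all genes were, with 1 lower at an unadjusted p under 0.05, 1 by DESeq2, none by limma-voom and 2 with the replicate number as a block (24.2% of all genes). Under library size 16 were higher and 5 lower, where 17.3% and 22% of all genes were. With family scaling 14 were higher and 6 lower, where 15.8% and 23.3% of all genes were, and with the block 13 were lower (34.4% of all genes). The count of 14 was near the share of all genes under that scaling. The 14 were called higher under all 5 scalings, among them Rpl7a, Rpl7l1, Rpl10a, Rpl14, Rpl15, Rpl22, Rpl27, Rpl29, Rpl35, Rpl36, Rpl41, Rps2 and Rps27l, and 11 of the 14 are of the large subunit. The share of all genes called under all 5 scalings was not computed, here or in the comparisons below, so such counts name genes and do not set the family apart. The TMM count rested in part on single libraries, at 17 without Naïve replicate 2, 20 without Naïve replicate 3, 17 without αCD3 replicate 2 and 16 without αCD3 replicate 3.

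The gene that rose most was Rps27l, a paralogue of the small subunit gene Rps27 that is known as a target of p53 (chr9:66946086-66949516, plus strand, GRCm38). Its level was 39.4, 51.5 and 48.5 CPM in Naïve replicates 1 to 3, 80.3, 116 and 102 CPM with αCD3, 38.5, 53.5 and 55.9 CPM with IFNγ and 80.0, 111 and 100 CPM with LPS. Every αCD3 and LPS library lay above every Naïve and IFNγ library, and Naïve and IFNγ overlapped. Against Naïve the log2 fold change was 1.10 ± 0.18 (SE; edgeR adjusted p = 0.00098) with αCD3 and 1.07 ± 0.18 (edgeR adjusted p = 0.000856) with LPS. Relative to the family it was 0.96 and 0.85. Its partner Rps27 went the other way relative to the family, at -0.32 with αCD3 and -0.25 with LPS (edgeR adjusted p = 0.015 and 0.0326), while under TMM it was not called (-0.18 and -0.04).

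Rpl7l1 (chr17:46773907-46782672, minus strand, GRCm38) was measured at 97.4, 124 and 123 CPM in Naïve, 161, 193 and 189 CPM with αCD3, 108, 116 and 118 CPM with IFNγ and 210, 254 and 230 CPM with LPS. The order was Naïve and IFNγ, which overlapped, then αCD3, then LPS, whose libraries all lay above those of αCD3. The log2 fold change against Naïve was 0.66 ± 0.11 (edgeR adjusted p = 0.000915) with αCD3 and 1.01 ± 0.11 (edgeR adjusted p = 3.61e-05) with LPS. Its widespread partner Rpl7 rose by far less, from 1514 ± 64.9 CPM in Naïve to 1682 ± 22.1 CPM with αCD3 and 1844 ± 97.7 CPM with LPS, and was not called relative to the family (0.01 and 0.07). Its TMM call with αCD3 was lost in 11 of the 12 fits that left out 1 library (edgeR adjusted p up to 0.148, without Naïve replicate 1).

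Rps2, which lies at the entry of the mRNA channel of the small subunit (chr17:24718116-24721929, plus strand, GRCm38), stood at 1659, 1621 and 1694 CPM in Naïve, 2320, 2485 and 2518 CPM with αCD3, 1763, 1822 and 1805 CPM with IFNγ and 2357, 2404 and 2417 CPM with LPS. The αCD3 and LPS libraries were again apart from the others, and all IFNγ libraries lay slightly above all Naïve libraries without a call (edgeR adjusted p = 0.136, and 0.0374 with the replicate block). Under library size alone IFNγ and Naïve overlapped, with means of 1765 and 1795 CPM. The log2 fold change with αCD3 was 0.56 ± 0.05 (edgeR adjusted p = 1.24e-05), and 0.42 relative to the family. Only 51.2% of its 31-base words were unique in the transcriptome, since pseudogenes carry near copies, so its reads could be shared.

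Rpl10a, which forms the mobile stalk beside the exit site for tRNA (chr17:28328471-28331033, plus strand, GRCm38), stood at 417, 414 and 454 CPM in Naïve, 557, 621 and 618 CPM with αCD3, 429, 372 and 496 CPM with IFNγ and 721, 700 and 660 CPM with LPS. LPS lay above αCD3 in every library, and IFNγ spanned the Naïve range. Against Naïve the log2 fold change with LPS was 0.69 ± 0.10 (edgeR adjusted p = 0.000194), and 0.48 relative to the family.

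**Figure D3:**
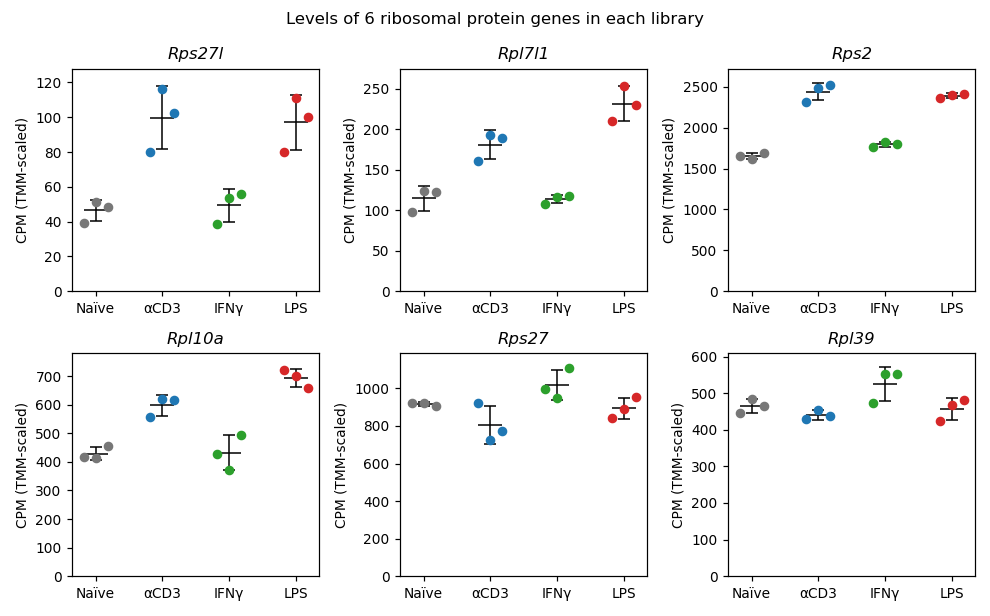
Levels (TMM-scaled CPM) of Rps27l, Rpl7l1, Rps2, Rpl10a, Rps27 and Rpl39 in each library by group, with mean ± SD (n = 3). For Rps27l, Rpl7l1, Rps2 and Rpl10a the αCD3 and LPS libraries lie above all Naïve and IFNγ libraries, and for Rps27 and Rpl39 the group means are highest with IFNγ (1019 and 526 CPM).

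With LPS 51 genes were called higher than in Naïve under TMM, 36 of the large and 15 of the small subunit, where 26.9% of all genes were. None was called lower by edgeR, where 22.3% of all genes were, nor at an unadjusted p under 0.05, by DESeq2 or by limma-voom. Under library size 10 were higher and 7 lower, where 17.7% and 36.1% of all genes were. With family scaling 10 were higher and 10 lower, where 17.1% and 35.3% of all genes were, and with the block 18 were lower (42.4% of all genes). Under these scalings smaller shares of the family than of all genes were called. The 10 called higher under all 5 scalings included Rpl7a, Rpl7l1, Rpl10a, Rpl15, Rpl22, Rpl27, Rpl29, Rps2 and Rps27l. The 10 lower relative to the family included Rpl17, Rpl37a, Rpl39, Rps4x, Rps19, Rps21, Rps23, Rps27 and Rps29, at -0.14 to -0.25, and under TMM these 10 had no call in either direction. The αCD3 and LPS comparisons share the Naïve libraries. Of the 14 genes above that rose with αCD3 under all scalings, 11 had a promoter and 7 of these a tract near the start, against 25 of the other 48 genes with a promoter, and of the 10 that rose with LPS, 8 had a promoter and 5 a tract, against 27 of the other 51.

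**Figure D4:**
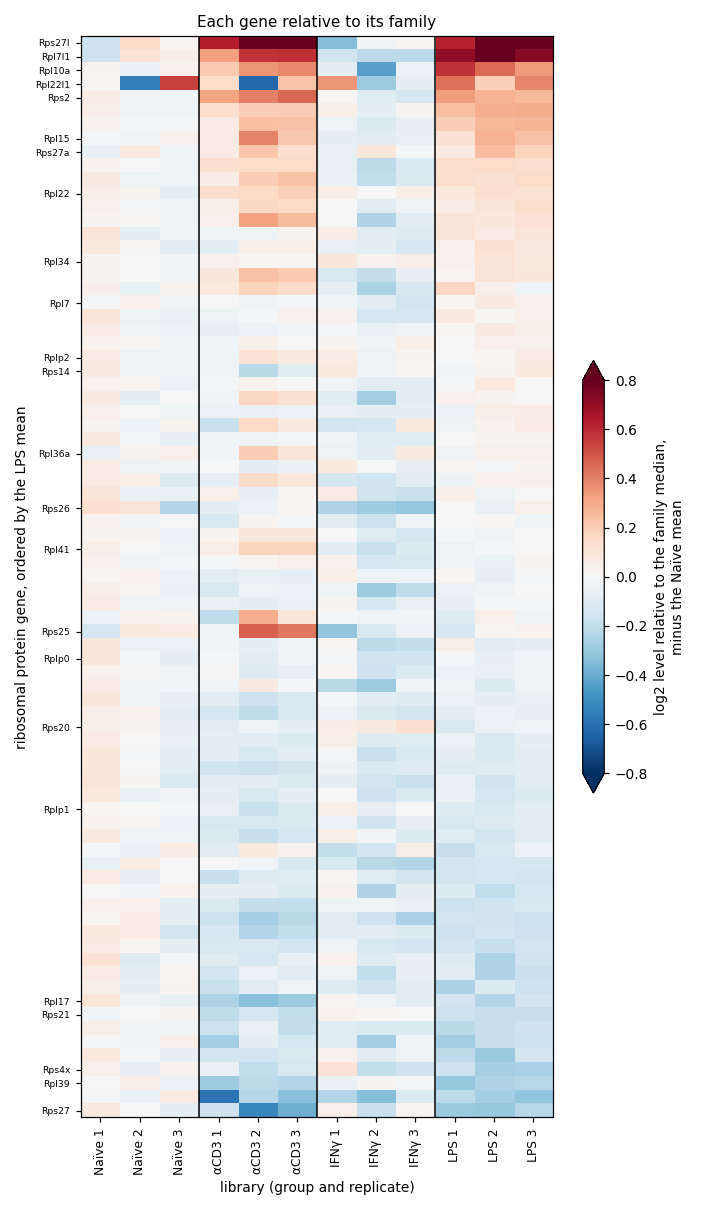
Log2 level of each of the 79 ribosomal protein genes relative to the median of the family in the same library, minus its Naïve mean, for the 12 libraries, with genes ordered by the LPS mean. Rps27l and Rpl7l1 head the order and reach 1.15 and 0.58 in αCD3 replicate 2, Rps27 closes it, the colour scale is cut at its ends, and only some rows carry a gene name.

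With IFNγ few genes of the family were called without the replicate block, although under TMM 75 of the 79 log2 fold changes were above 0 (median 0.11), against 71 with αCD3 (median 0.12). Under library size 24 of the 79 were above 0 with IFNγ and 45 with αCD3, so this tally followed the scaling. The share of all genes above 0 was not computed. Under TMM 6 genes were called higher than in Naïve (Rps3, Rps9, Rps13, Rps20, Rpl22 and Rpl34), where 8.17% of all genes were, and none lower by edgeR, where 4.27% of all genes were, nor at an unadjusted p under 0.05, by DESeq2 or by limma-voom. The higher count was 28 at an unadjusted p under 0.05, 15 by DESeq2 and 5 by limma-voom, for which no share of all genes was computed. It was 0 by edgeR without a count filter or with only the 2 groups compared. With the replicate block 25 were higher, where 13.5% of all genes were. Under library size none was higher and 1, Rps26, was lower, where 5.9% and 12.9% of all genes were, with 1 higher and 3 lower at an unadjusted p under 0.05. With family scaling none was called by edgeR in either direction, where 5.72% and 8.32% of all genes were, with 2 higher and 1 lower at an unadjusted p under 0.05. With the block and family scaling together 2 were higher, Rps20 at 0.16 and Rpl34 at 0.13, and 1 was lower, Rps26 at -0.21, where 9.25% and 22.6% of all genes were called. The TMM count fell to 0 by edgeR without any single Naïve library, without IFNγ replicate 2 or without IFNγ replicate 3, to 3 without αCD3 replicate 3, and rose to 11 without LPS replicate 1.

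Rps20, which lies in the head of the small subunit, had the largest TMM difference with IFNγ. Its level was 998, 1022 and 997 CPM in Naïve and 1107, 1239 and 1323 CPM with IFNγ, so the groups did not overlap. The log2 fold change was 0.28 ± 0.07 (edgeR adjusted p = 0.0293), with an adjusted p of up to 0.117, without IFNγ replicate 3, when 1 library was left out and of 0.121 under library size. Rpl34, of the large subunit, was at 729, 752 and 767 CPM in Naïve and 842, 897 and 930 CPM with IFNγ, a log2 fold change of 0.25 ± 0.06 (edgeR adjusted p = 0.0203, and 0.0838 without IFNγ replicate 3). Rpl22, whose product also binds cellular RNAs in lymphocytes, was at 373, 381 and 369 CPM in Naïve and 408, 441 and 462 CPM with IFNγ, a log2 fold change of 0.22 ± 0.06 (edgeR adjusted p = 0.0365, and 0.142 without IFNγ replicate 3). Each of the 3 lost its call without any single Naïve library and without IFNγ replicate 2 or 3, and Rpl22 also without αCD3 replicate 2 or 3 or LPS replicate 3. All 3 were higher in every IFNγ library than in any Naïve library. Under TMM this held for 40 genes of the family in all, so it does not set the 3 apart. No such count over all genes is given.

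Set against αCD3, IFNγ differed in single members. Under TMM 5 genes were higher and 13 lower with IFNγ than with αCD3, where 15.8% and 21.4% of all genes were, and with the block 10 were higher (23.7% of all genes). Under library size the counts were 4 and 18, where 13.3% and 22.5% of all genes were called, and with family scaling 10 and 15, where 15.3% and 19.1% of all genes were. Rpl17, Rpl39, Rps21 and Rps27 were higher under all 5 scalings, and 11 genes were lower, among them Rpl7a, Rpl7l1, Rpl10a, Rpl12, Rpl14, Rpl29, Rpl35, Rpl41, Rps2 and Rps27l. The count of higher genes was 3 without αCD3 replicate 2, 1 without αCD3 replicate 3, 2 without IFNγ replicate 2 and 1 without IFNγ replicate 3, and the count of lower genes was 8 without αCD3 replicate 2.

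Rps27 was at 996, 951 and 1109 CPM with IFNγ and 921, 724 and 775 CPM with αCD3, a log2 difference of 0.34 ± 0.09 (edgeR adjusted p = 0.0138, but 0.0578 without αCD3 replicate 2, 0.0572 without αCD3 replicate 3 and 0.0588 without IFNγ replicate 3). The groups did not overlap, although αCD3 replicate 1 stood near the lowest IFNγ library and within the Naïve range. Rps27rt, an intronless copy that shares 315 words of 31 bases with Rps27, has its own row, and reads of both could be split. Rps27rt was at 182, 194 and 203 CPM with IFNγ and 151, 163 and 158 CPM with αCD3, a log2 difference of 0.29 ± 0.06 (edgeR adjusted p = 0.0033). Rpl17 was at 1536, 1650 and 1622 CPM with IFNγ and 1364, 1295 and 1310 CPM with αCD3 (0.28 ± 0.05, edgeR adjusted p = 0.00162). Rpl39 was at 472, 553 and 552 CPM with IFNγ and 429, 455 and 436 CPM with αCD3 (0.26 ± 0.08, edgeR adjusted p = 0.021, but 0.0547 and 0.0671 without αCD3 replicate 1 or 3 and 0.0797 and 0.0776 without IFNγ replicate 2 or 3). Rpl17 and Rpl39 both line the tunnel through which the new protein leaves the large subunit. Among the genes that were lower, Rps27l differed by -1.01 ± 0.18, Rpl7l1 by -0.67 ± 0.11 and Rpl10a by -0.47 ± 0.10 (edgeR adjusted p = 0.00151, 0.000768 and 0.00299).

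Against LPS, 24 genes were lower with IFNγ under TMM, 19 of the large and 5 of the small subunit, where 22.4% of all genes were. None was higher by edgeR, where 18% of all genes were, with 3 at an unadjusted p under 0.05, 2 by DESeq2, none by limma-voom and 3 with the block (25.8% of all genes). Under library size 5 were higher and 13 lower, where 21.3% and 19.2% of all genes were, and with family scaling 10 and 10, where 22.3% and 17.7% of all genes were. The 10 lower under all 5 scalings included Rpl7a, Rpl7l1, Rpl10a, Rpl15, Rpl27, Rpl29, Rps2, Rps26 and Rps27l. Rpl7l1 differed by -1.02 ± 0.11, Rps27l by -0.98 ± 0.18 and Rpl10a by -0.68 ± 0.10 (edgeR adjusted p = 3.52e-05, 0.0017 and 0.000228). The TMM count of lower genes was 15 without IFNγ replicate 1 or 2, 13 without LPS replicate 2 and 11 without LPS replicate 3.

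Between αCD3 and LPS few genes of the family differed. Under TMM 5 genes were lower with αCD3 (Rpl7l1, Rpl17, Rpl18, Rpl19 and Rps14), where 9.76% of all genes were, and 19 with the block (18.2% of all genes). None was higher by edgeR, where 9.64% of all genes were, nor at an unadjusted p under 0.05, by DESeq2 or by limma-voom, and 1 was with the block (16.5% of all genes). Under library size 2 were higher, Rps2 and Rpl41, and none lower by edgeR, where 13.9% and 6.32% of all genes were, with 1 lower at an unadjusted p under 0.05. With family scaling 1 was higher, Rpl41, and none lower by edgeR, where 11.3% and 6.41% of all genes were, with 2 lower at an unadjusted p under 0.05, and with the block Rpl41 and Rps25 were higher and Rpl7l1 lower (20.4% and 11.6% of all genes). Rpl7l1 differed by -0.36 ± 0.11, Rps14, of the platform of the small subunit, by -0.21 ± 0.06 and Rpl17 by -0.18 ± 0.05 (edgeR adjusted p = 0.043, 0.0399 and 0.03). These calls were lost in 10, 9 and 4 of the 12 fits that left out 1 library, with an edgeR adjusted p of up to 0.162 without LPS replicate 2, 0.151 without LPS replicate 3 and 0.118 without LPS replicate 3. The TMM count of lower genes was 0 by edgeR without αCD3 replicate 2 or 3 or LPS replicate 2 or 3, 13 without LPS replicate 1, and 2 or 3 without any other single library. No gene was called in this pair under all 5 scalings.

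The calls of the stalk genes depended on the scaling or the block. Rplp0 was at 3438 ± 59.7 CPM in Naïve, 3745 ± 77.1 CPM with αCD3, 3633 ± 37.9 CPM with IFNγ and 3949 ± 122 CPM with LPS, and was called higher with αCD3 (log2 fold change 0.12) and LPS (0.20) under TMM but not relative to the family (-0.01 in both). Rplp1 was at 1727 ± 51.1, 1784 ± 71.1, 1960 ± 88.0 and 1895 ± 80.8 CPM in the same order, with no call against Naïve under TMM, while with the replicate block it was called higher with IFNγ and LPS (edgeR adjusted p = 0.0137 and 0.0249). Rplp2 was at 759 ± 16.5, 881 ± 50.1, 875 ± 43.1 and 913 ± 56.4 CPM, called higher with αCD3 (0.22) and LPS (0.27) under TMM but not relative to the family (0.08 and 0.05), and with IFNγ only with the block (edgeR adjusted p = 0.0106 against 0.0653). With αCD3 the calls of Rplp0 and Rplp2 were lost in 6 and 4 of the 12 fits that left out 1 library (edgeR adjusted p up to 0.0928 without Naïve replicate 3 and 0.097 without αCD3 replicate 2).

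Some ribosomal proteins are made as fusions with ubiquitin or a protein like it. Rps27a, a fusion with ubiquitin, was at 771 ± 55.1 CPM in Naïve, 953 ± 58.6 CPM with αCD3, 886 ± 95.1 CPM with IFNγ and 1020 ± 95.5 CPM with LPS, and rose with αCD3 (0.31) and LPS (0.40) under TMM, with 0.17 and 0.19 relative to the family and no call. Without αCD3 replicate 2 its edgeR adjusted p with αCD3 was 0.107, and with the block it was also called higher with IFNγ (edgeR adjusted p = 0.00673). Fau, which encodes a small subunit protein fused to a ubiquitin-like protein, fell: it was at 421, 443 and 391 CPM in Naïve, 352, 371 and 339 CPM with αCD3 and 347, 373 and 348 CPM with LPS. All treated libraries of both groups lay below all Naïve libraries. The log2 fold change of Fau was -0.24 ± 0.07 with αCD3 and -0.23 ± 0.07 with LPS (edgeR adjusted p = 0.0152 and 0.0139), and -0.38 and -0.45 relative to the family. The edgeR adjusted p of Fau was 0.0674 with αCD3 without αCD3 replicate 3 and 0.0604 with LPS without Naïve replicate 2. With IFNγ it was at 357, 383 and 385 CPM, not called under TMM (edgeR adjusted p = 0.161) but called lower under library size, relative to the family and with the block (edgeR adjusted p = 0.00852, 0.0239 and 0.0337). Rack1, a scaffold on the head of the small subunit, was at 1790 ± 8.88, 1874 ± 41.7, 1906 ± 70.7 and 2108 ± 78.0 CPM, called higher with LPS under TMM (0.24) and not relative to the family (0.02).

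Of the remaining paralogues, Rpl22l1 was at 10.4 ± 4.18 CPM in Naïve and 14.7 ± 1.18 CPM with LPS without a call (edgeR adjusted p = 0.164, and 0.0265 with the block), while Rpl22 rose with αCD3 (0.33) and LPS (0.35) from 374 ± 6.44 CPM. Rpl36a was at 316 ± 23.6 CPM in Naïve and 377 ± 30.5 CPM with αCD3, with no call (edgeR adjusted p = 0.0526, and 0.00285 with the block), and was called higher with LPS at 376 ± 23.5 CPM (0.25 ± 0.09, edgeR adjusted p = 0.0457, but 0.153 without Naïve replicate 1). Rpl3 was at 1388 CPM and Rpl10 at 704 CPM on average in Naïve, whereas their paralogues Rpl3l and Rpl10l, which are known from muscle and testis, had at most 0.313 and 0.0805 CPM in any library. Rps4x was at 1916 CPM in Naïve and not called under TMM, and Rpl39l stayed at or under 1.34 CPM. Rps12 had at most 2.49 CPM in any library. It shares 464 words of 31 bases with Rps12-ps3, which has no row in the table analysed here. Over the 79 genes a median of 72.4% of such words were unique, 9 genes had under 50% and Rpl36 5.95%.

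Other genes of ribosome production and translation were read as 6 lists, with no test between lists. Of all genes tested, 22.9% were called higher and 15.7% lower with αCD3. With LPS 26.9% were higher and 22.3% lower, and with IFNγ 8.17% and 4.27%. Under library size these shares were 17.3% and 22%, 17.7% and 36.1%, and 5.9% and 12.9%. With the replicate block 24.2% were lower with αCD3 and 13.5% higher and 11.4% lower with IFNγ. Of 38 genes of ribosome biogenesis, 37 (97.4%) rose with αCD3 (median log2 fold change 1.17) and 37 with LPS (1.38), under TMM and library size alike. With IFNγ 2 fell (5.26%, near the share of all genes; median -0.04), 8 fell under library size (median -0.18), and with the block 3 rose and 5 fell. Myc, which drives transcription of this group, rose from 151 ± 7.49 CPM in Naïve to 508 ± 109 CPM with αCD3 (1.75 ± 0.15) and 597 ± 37.7 CPM with LPS (1.98 ± 0.15). With αCD3 Polr1b, a subunit of RNA polymerase I, rose by 1.48 ± 0.10 and the nucleolar factor Rrp1b by 1.45 ± 0.14, and with LPS Rrp1b rose by 2.04 ± 0.14 and Rrp9, which binds the U3 snoRNA, by 1.76 ± 0.10. The genes that fell with IFNγ were Ubtf, a factor of ribosomal DNA transcription (-0.35 ± 0.07), and Rrp12 (-0.33 ± 0.08).

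Of 34 translation factors, 27 (79.4%) rose and 1 (2.94%) fell with αCD3 (median 0.56), 29 (85.3%) rose and 1 fell with LPS (0.61) and 1 (2.94%, below the share of all genes) rose with IFNγ (0.05). With the block 3 fell with αCD3 and 7 rose with IFNγ. Under library size 2 fell with αCD3, 2 with LPS and 4 with IFNγ, with medians of 0.45, 0.40 and -0.09. Eif5a, which helps stalled ribosomes, rose from 735 ± 116 to 1853 ± 380 CPM with αCD3 (1.33 ± 0.19) and 1787 ± 265 CPM with LPS (1.28 ± 0.19), and Eif2s1, a subunit of the factor that brings initiator tRNA, by 0.99 ± 0.13 and 1.32 ± 0.14. The third with αCD3 was Eif3b (0.88 ± 0.08) and with LPS Eif4e, which binds the cap (1.29 ± 0.16). The 1 with IFNγ was the elongation factor Eef1a1 (0.10 ± 0.03), itself a terminal tract mRNA, not called under library size (-0.04).

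Of 10 other terminal tract mRNAs in the table, 5 (50%) rose and 2 (20%) fell with αCD3 (median 0.21), and 6 (60%) rose and 2 (20%) fell with LPS (0.37). None was called with IFNγ by edgeR (median 0.14), with 3 higher and 1 lower at an unadjusted p under 0.05, 2 higher by DESeq2 and none by limma-voom, and 4 higher and 1 lower with the block. The share that fell was near that of all genes with αCD3 and LPS. Under library size 5 rose and 3 fell with αCD3, 5 rose and 2 fell with LPS and 1 fell with IFNγ, with medians of 0.10, 0.16 and -0.00. Npm1, a nucleolar chaperone, rose from 1075 ± 69.1 to 2482 ± 367 CPM with αCD3 (1.21 ± 0.11) and 2718 ± 282 CPM with LPS (1.34 ± 0.11), and Hnrnpa1 by 1.03 ± 0.10 and 0.85 ± 0.10. Vim, an intermediate filament gene, fell from 188 ± 31.2 to 112 ± 13.2 CPM with αCD3 (-0.76 ± 0.13) and 97.7 ± 9.61 CPM with LPS (-0.95 ± 0.13).

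Of 12 genes for nuclear import and assembly chaperones of ribosomal proteins, 10 (83.3%) rose with αCD3 (median 0.72), 11 (91.7%) with LPS (0.72) and 1 (8.33%, near the share of all genes) with IFNγ (0.05). With IFNγ 2 rose with the block and 2 fell under library size (median -0.09). The importin Ipo4 rose by 1.29 ± 0.09 and 1.51 ± 0.09, Heatr3 by 1.25 ± 0.13 and 1.33 ± 0.13 and Ipo5 by 1.10 ± 0.22 and 1.38 ± 0.22 with αCD3 and LPS, and Tnpo1 by 0.29 ± 0.06 with IFNγ, which was not called under library size. Of 17 genes for mTOR control of translation, 5 rose and 1 fell with αCD3 (median -0.05), 5 rose and 4 fell with LPS (0.13) and 3 fell with IFNγ (-0.11). The shares called were 29.4% higher and 5.88% lower with αCD3, where 22.9% and 15.7% of all genes were, 29.4% and 23.5% with LPS, where 26.9% and 22.3% of all genes were, and 17.6% lower with IFNγ, where 4.27% of all genes were. With the block 3 fell with αCD3 and 1 rose with IFNγ, and under library size 3 rose with αCD3 (median -0.15), 2 rose with LPS (-0.08) and 5 fell with IFNγ (-0.26). Larp1, which binds terminal tract mRNAs, rose from 297 ± 19.6 to 543 ± 117 CPM with αCD3 (0.87 ± 0.16) and 746 ± 69.7 CPM with LPS (1.33 ± 0.16), and Larp4 by 0.87 ± 0.12 and 1.15 ± 0.12. Castor1, an arginine sensor, fell with αCD3 (-0.89 ± 0.25) and Sesn1, a leucine sensor of the sestrin family, with LPS (-1.21 ± 0.26). The genes that fell with IFNγ were Ddit4 (-0.58 ± 0.10), Sesn2 (-0.49 ± 0.11) and Akt1 (-0.34 ± 0.07).

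Of 77 mitochondrial ribosomal protein genes, which are encoded in the nucleus and serve a separate ribosome, 60 (77.9%) rose with αCD3 (median 0.50), 59 (76.6%) with LPS (0.48) and 1 (1.3%, below the share of all genes) with IFNγ (0.02). Under library size 54 rose with αCD3 (median 0.39), 41 rose and 2 fell with LPS (0.27) and 4 fell with IFNγ (-0.12). With the block 4 rose and 1 fell with IFNγ. Mrps6 rose with αCD3 from 14.1 ± 2.67 to 43.0 ± 4.72 CPM (1.60 ± 0.13), Mrps28 by 1.19 ± 0.19 with αCD3 and 1.27 ± 0.19 with LPS, Mrpl12 by 1.08 ± 0.14 and 1.18 ± 0.14, and Mrpl17 by 1.27 ± 0.14 with LPS. Mrps34 rose by 0.45 ± 0.13 with IFNγ and was not called under library size. The medians of the cytosolic ribosomal protein genes, 0.12 and 0.22, lay below those of the translation factors, biogenesis, import and mitochondrial lists in both comparisons, as a description without a test between lists.

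**Figure D5:**
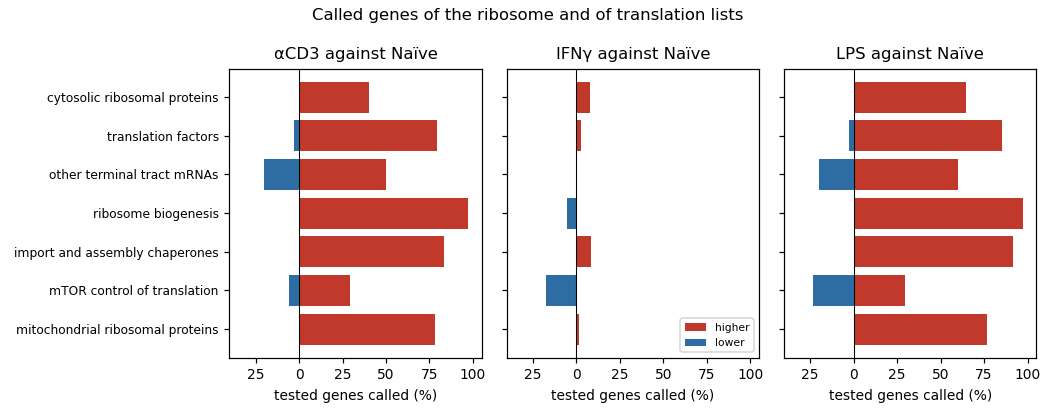
Percent of tested genes called higher (right of 0) or lower (left of 0) than in Naïve under TMM, for the 79 cytosolic ribosomal protein genes and 6 lists of other genes, with αCD3, IFNγ and LPS. Ribosome biogenesis reaches 97.4% higher with both αCD3 and LPS, the cytosolic ribosomal proteins 40.5% and 64.6%, and with IFNγ the highest share is 17.6% of the mTOR list, called lower.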

How the data were processed

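mRNA libraries of cultured splenic CD8 T cells were sequenced by the authors, who pseudo-aligned reads with Kallisto to mm10 and deposited expected counts per gene symbol, estimated for each library without pooling or scaling; the Kallisto version and transcript annotation are not given in the sources used here. Per the study's methods, DESeq2 1.24.0 and TMM were used. Kallisto shares reads among similar transcripts, and 73 to 78 of the 79 ribosomal protein genes had fractional counts in a library. Counts were rounded to whole numbers.

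Here edgeR 4.0.16 in R 4.3.3 was used (TMM, filterByExpr, glmQLFit with robust estimation, glmQLFTest) in 1 fit over all 12 libraries with group as the only term, 6 pairwise contrasts, and Benjamini-Hochberg adjustment over all 12122 tested genes. CPM are scaled to TMM library sizes. SE come from the fit. No test was run over the ribosomal protein genes as a list. The script was tested on simulated data. Depth was 10196248 to 27610175 counts.

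Alternatives were library size alone, DESeq2 size factors, TMM without the ribosomal protein genes or from them alone, DESeq2 1.42.0, limma-voom (limma 3.58.1), no count filter, a replicate block, only the 2 groups compared, and each library left out. The scaling to the ribosomal protein genes alone, with and without the block, was chosen after seeing the data. Libraries with the same replicate number in the labels deviated together from their group means (18 pairs, correlation across genes 0.117 to 0.401). Different numbers gave -0.354 to 0.102, but deviations cancel within a group, so these low values are not separate evidence. Across the ribosomal protein genes alone the ranges overlapped, at 0.0103 to 0.722 for the same number and -0.736 to 0.521 for different numbers. Whether the numbers mark true pairs is therefore uncertain. The main fit has no term for them, so its p-values ignore any pairing. The blocked value, which takes the numbers as pairs, is given where it changed a count by over 1.5 times. Gene positions, lengths and 31-base words come from GENCODE M21 (GRCm38), in which 20612 symbols of the table were found, and start-site windows from RefSeq (GRCm38.p6).

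The genes and lists were chosen with earlier results of these data known. Named genes were the 3 called with the largest positive and negative log2 fold change in each comparison, the 3 highest and lowest per length, the stalk genes, fusion genes, Rack1, named paralogues, and of each list up to 3 called genes with the largest change against Naïve. Other genes named were chosen after their values were seen. Some genes are not reported by name here. Protein sequences of paralogues were not analysed here.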

Additional observations from a re-analysis of the deposited data

Results flagged for a closer look

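Rows that match the ribosomal protein names but fall outside the 79 genes were also read, and 3 of them stood above Naïve, the control group, with an edgeR adjusted p below 0.05 under TMM. Rpl36al, a paralogue of Rpl36a, was at 167, 188 and 185 CPM in Naïve, 225, 264 and 251 CPM with αCD3 and 231, 267 and 251 CPM with LPS, a log2 fold change of 0.45 ± 0.08 and 0.47 ± 0.08 (edgeR adjusted p = 0.00154 and 0.000862), and 0.31 and 0.26 relative to the 79 genes, still called. All its αCD3 and LPS libraries lay above all Naïve libraries. Rpl14-ps1, a row named as a pseudogene of Rpl14, was at 198 ± 3.27 CPM in Naïve, 243 ± 14.9 CPM with αCD3 and 264 ± 5.85 CPM with LPS, a log2 fold change of 0.30 ± 0.08 and 0.41 ± 0.08 (edgeR adjusted p = 0.0156 and 0.00183, the first 0.0511 without Naïve replicate 3), and was not called relative to the 79 genes. Rpl14 itself rose under every scaling with αCD3, and reads of both could be split. Rps4l, the row just under the CPM minimum, is annotated as a transcribed processed pseudogene. Rps4l was at 3.36, 3.68 and 4.36 CPM in Naïve and 6.14, 5.88 and 5.95 CPM with LPS, a log2 fold change of 0.66 ± 0.21 (edgeR adjusted p = 0.0242, and 0.0833 without Naïve replicate 1), and was not called relative to the 79 genes (0.44). Another row, Rps27rt, stood below Naïve, at 191, 182 and 183 CPM in Naïve, 151, 163 and 158 CPM with αCD3 and 168, 169 and 158 CPM with LPS. Its log2 fold change was -0.23 ± 0.06 and -0.17 ± 0.06 (edgeR adjusted p = 0.0115 and 0.0407, the second lost in 8 of the 12 fits that left out 1 library, with up to 0.145 without LPS replicate 3), and -0.37 and -0.38 relative to the 79 genes, still called. These rows were chosen after their values were seen.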

How the results depend on the processing

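Both the scaling of the libraries and the replicate block moved these counts. Counts are given as higher, then lower. Under library size alone they were 16 and 5 (αCD3 against Naïve), 0 and 1 by edgeR (IFNγ against Naïve), 10 and 7 (LPS against Naïve), 5 and 13 (IFNγ against LPS) and 2 and 0 (αCD3 against LPS), and 24 genes differed among the 4 groups. With family scaling they were 14 and 6, 0 and 0, 10 and 10, 10 and 10, and 1 and 0 in the same order, with 10 higher for IFNγ against αCD3 and 24 among the 4 groups. With family scaling and the replicate block they were 17 and 13, 2 and 1, 13 and 18, 13 and 15, and 2 and 1, with 12 higher for IFNγ against αCD3. The replicate block under TMM gave 2 lower for αCD3 against Naïve, 25 higher for IFNγ against Naïve, 10 higher for IFNγ against αCD3, 3 higher for IFNγ against LPS and 1 higher and 19 lower for αCD3 against LPS, and moved no other count by over 1.5 times. By DESeq2 1 gene was lower for αCD3 against Naïve, 15 were higher for IFNγ against Naïve, 9 for IFNγ against αCD3, 2 for IFNγ against LPS, and 9 were lower for αCD3 against LPS. Without a count filter these were 0 higher for IFNγ against Naïve, 3 higher for IFNγ against αCD3 and 0 lower for αCD3 against LPS, and with only the 2 groups compared 0, 1 and 0, with 12 lower for IFNγ against LPS. DESeq2 size factors gave 3 lower for αCD3 against LPS. Limma-voom and TMM without the ribosomal protein genes moved no count by over 1.5 times.

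With each library left out in turn, the counts ranged over 16 to 34 higher and 0 to 1 lower (αCD3 against Naïve), 0 to 11 higher (IFNγ against Naïve), 40 to 53 higher (LPS against Naïve), 1 to 6 higher and 8 to 15 lower (IFNγ against αCD3), 0 to 2 higher and 11 to 33 lower (IFNγ against LPS), 0 to 13 lower (αCD3 against LPS) and 35 to 52 among the 4 groups. A single gene was called higher for IFNγ against LPS without LPS replicate 3, and 2 without IFNγ replicate 1, while 1 lower gene for αCD3 against Naïve came without αCD3 replicate 1. Why these counts moved was not tested. For the 21 differences of genes named as the largest of a comparison, none reversed its direction under the alternatives, 384 values kept their call and 78 lost it, for Rps20, Rpl34 and Rpl22 with IFNγ, Rps27 and Rpl39 between IFNγ and αCD3, and Rpl7l1, Rps14 and Rpl17 between αCD3 and LPS. Rps27l, Rpl7l1, Rps2 and Rpl10a kept their calls against Naïve among these. Other named genes lost calls or changed sign, as given beside their values in the results, among them Rpl7, Rplp0, Rplp2, Rps27a, Fau, Rpl36a and Eef1a1.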
